A study of Arabidopsis thaliana with 6 samples.

Results

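FLA9, FLA16, sks17 and BGAL4 encode proteins that plant cells secrete to the wall or to the outer face of the plasma membrane. They were found by gene symbol or title in the authors' deposited tables of probe sets called up or down, and each has 1 probe set there. Any other probe set of these genes on the arrays could not be identified here. They are 4 of the 541 genes that have a named probe set here, on arrays that carry 22810 probe sets in all. The tables hold only probe sets that the authors called on the same arrays, so these genes were selected on the difference between OE and KO signals, and its direction and size are given as a description, with no test.

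The growing plant wall is a network of cellulose, hemicellulose and pectin that carries secreted glycoproteins. Fasciclin-like arabinogalactan proteins, the FLA family, join arabinogalactan glycoprotein regions to fasciclin domains, a fold linked to cell adhesion in animals, and several of them affect wall architecture and stem mechanics in Arabidopsis. Beta-galactosidases of the BGAL family remove terminal galactose from wall polysaccharides and glycoproteins, and the SKU5-similar proteins resemble multicopper oxidases, after SKU5, a glycoprotein of directed root growth.

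Total RNA of Arabidopsis thaliana was measured on 6 Affymetrix ATH1 arrays, which read a transcript with a set of short probes. All plants were 4 weeks old and had been exposed to NaCl at 200 mM for 3 h. The OE group, 3 arrays, came from line OE-3, which overexpresses the NAC transcription factor gene ANAC069. The KO group, 3 arrays, came from line KO-2, a SALK insertion line (SALK_095231C) labelled as an ANAC069 knockout. Each genotype is therefore represented by 1 line, and the sources used here do not name the promoter of the transgene. The labels name whole plants and no organ, and none of 18 organ markers has a named probe set here, so the organ was not checked. No wild-type or unsalted plants were analysed here, so a difference between OE and KO does not show which genotype departed from wild type. In RNA from whole plants, fewer cells of a type and less transcript per cell cannot be told apart.

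ANAC069 itself had signals of 2991, 2386 and 2360 in OE and 386, 364 and 391 in KO. The KO signals lay above the median signal of every array, so this probe set does not show that the transcript is absent in KO. The median signal per array was 161, 182 and 186 in KO and 158, 149 and 157 in OE. Each OE array thus had a lower median than each KO array, so array scale and genotype cannot be told apart. The share of signals under 16 ran from 16.1% to 19.7%. Over the probe sets tested, log2(signal + 16) correlated at 0.948 to 0.971 among KO arrays, at 0.964 to 0.969 among OE arrays and at 0.916 to 0.955 between the genotypes. Of 15922 probe sets tested with limma, 4.87% passed an adjusted p threshold of 0.05, made up of 3.03% with OE higher and 1.84% with OE lower. The 3 OE and 3 KO signals did not overlap in 31.2% of them, in 12.9% with OE higher and in 18.3% with OE lower.

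FLA9 (AT1G03870) is annotated in the deposited tables as anchored to the plasma membrane, which places it at the cell surface. Its probe set is placed by the authors' deposited table on chromosome 1, minus strand, from 982624 to 983368. The sources used here name no genome build for this position or those of the other 3 genes. The FLA9 signal was 675, 1831 and 1381 in KO replicates 1, 2 and 3, and 518, 231 and 169 in OE replicates 1, 2 and 3. The genotypes did not overlap, but KO replicate 1 and OE replicate 1 lay close to each other. The smallest ratio of a KO array to an OE array was 1.30 and the largest was 10.8.

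The KO arrays averaged 1296 ± 582 (SD, n = 3) for FLA9 and the OE arrays 306 ± 186 (SD, n = 3). On the log2(signal + 16) scale, used from here on, OE was lower by a difference of -2.06 (SE 0.44). FLA9 was the most variable of the 4 genes within a genotype, with a coefficient of variation of 44.9% in KO and 60.9% in OE. Its within-group SD on the log2 scale was 0.76, against 0.12 for FLA16. Without KO replicate 1 the difference was -2.47, and without KO replicate 2 it was -1.76.

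FLA16 (AT2G35860) belongs to the same family and is annotated to cell adhesion and to the extracellular region. Its probe set is placed there on chromosome 2, plus strand, from 15059858 to 15061286. The FLA16 signal was 790, 774 and 913 in KO replicates 1, 2 and 3, and 424, 371 and 431 in OE replicates 1, 2 and 3. Each KO array was well above each OE array, with KO to OE ratios between 1.80 and 2.46.

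The KO arrays averaged 826 ± 76.1 (SD, n = 3) for FLA16 and the OE arrays 409 ± 32.8 (SD, n = 3), a log2 difference of -0.99 (SE 0.14). The coefficient of variation was 9.22% in KO and 8.03% in OE, the lowest of the 4 genes in each genotype. The difference was smaller than that of FLA9 on the log2 scale, while the replicates lay closer together. FLA16 also stands nearest to the authors' limit of a 2-fold difference: in the authors' deposited table its fold is 2.02, against 2.63 for sks17, 4.23 for BGAL4 and 4.39 for FLA9. No FLA gene outside those tables is named here, so the values of the family just outside the limit were not analysed.

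sks17 (AT5G66920) encodes a SKU5-similar protein that the deposited tables annotate to the cell wall and to copper ion binding. Its probe set is placed there on chromosome 5, plus strand, from 26722962 to 26725370. The sks17 signal was 230, 330 and 486 in KO replicates 1, 2 and 3, and 147, 136 and 100.4 in OE replicates 1, 2 and 3. The KO arrays were spread over more than a 2-fold range, and the lowest of them was 1.56 times the highest OE array.

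For sks17 the KO arrays averaged 349 ± 129 (SD, n = 3) and the OE arrays 128 ± 24.5 (SD, n = 3), a log2 difference of -1.29 (SE 0.27). Its coefficient of variation was 37.1% in KO and 19.1% in OE. Without KO replicate 3, the highest array, the difference was -1.03, and without KO replicate 1, the lowest of that group, it was -1.55.

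BGAL4 (AT5G56870), a beta-galactosidase gene annotated to the apoplast and the extracellular region, was the member with the higher level in OE. Its probe set is placed there on chromosome 5, plus strand, from 23004283 to 23008410. The BGAL4 signal was 465, 757 and 824 in KO replicates 1, 2 and 3, and 4061, 2884 and 1875 in OE replicates 1, 2 and 3. The genotypes were far apart: OE to KO ratios ran from 2.27 to 8.73 over pairs of arrays.

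For BGAL4 the KO arrays averaged 682 ± 191 (SD, n = 3) and the OE arrays 2940 ± 1094 (SD, n = 3), a log2 difference of 2.05 (SE 0.30). Its size was close to that of FLA9 and its direction was the opposite. The coefficient of variation was 28.0% in KO and 37.2% in OE. Leaving out OE replicate 1 gave 1.79 and leaving out OE replicate 3 gave 2.34.

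**Figure D1:**
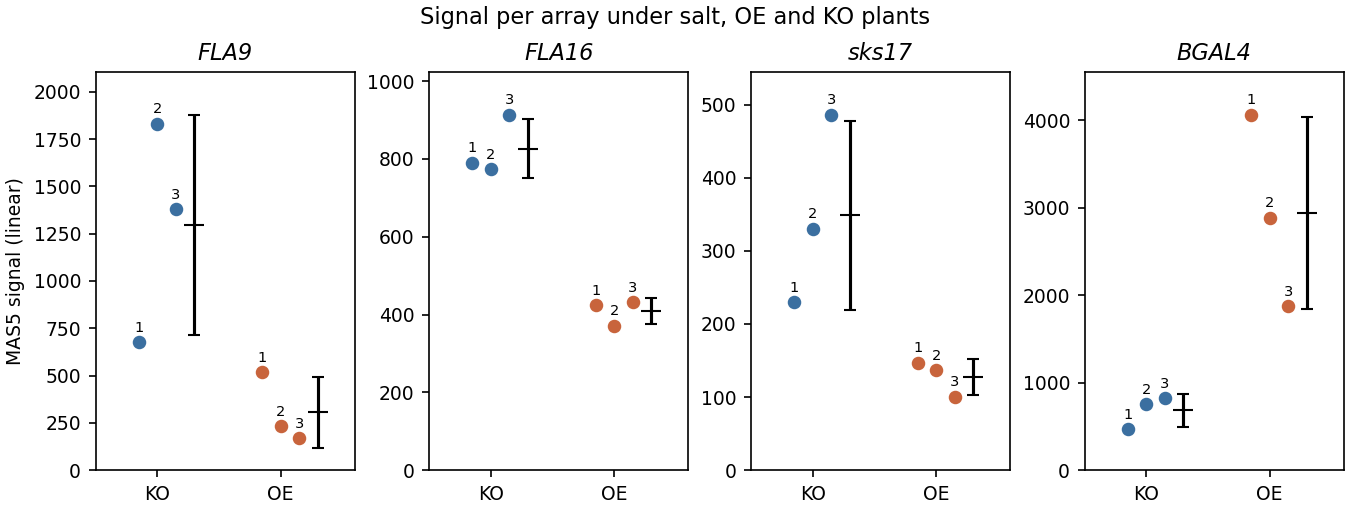
MAS5 signal (vertical axis, linear, starting at 0, own scale for each gene) of FLA9, FLA16, sks17 and BGAL4 in KO and OE plants under salt. Points are arrays with their replicate number, and black bars are the mean and SD of 3 arrays; FLA9, FLA16 and sks17 lie lower in OE, BGAL4 lies higher in OE (1875 to 4061 against 465 to 824 in KO), and FLA16 has the tightest replicates.

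Within a genotype the 4 genes did not all vary alike. KO replicate 1 was the lowest KO array for FLA9, sks17 and BGAL4, at -0.81, -0.51 and -0.50 from the KO mean on the log2 scale. OE replicate 1 was the highest OE array for the same 3 genes, at 0.88, 0.20 and 0.53 from the OE mean, and OE replicate 3 was the lowest, at -0.65, -0.29 and -0.58. BGAL4 thus stood on the same side as FLA9 and sks17 in these arrays within each genotype, while its difference between genotypes had the opposite sign. FLA16 deviated by at most 0.15 in any array, and its lowest array was replicate 2 in both genotypes.

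The root mean square difference between centred log2 profiles over the 6 arrays summarises this likeness. It was 0.34 between FLA16 and sks17, 0.60 between FLA9 and sks17, and 0.82 between FLA9 and FLA16. Against BGAL4 the values were 1.57 for FLA16, 1.69 for sks17 and 2.08 for FLA9. These values include the difference between genotypes that chose the genes.

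**Figure D2:**
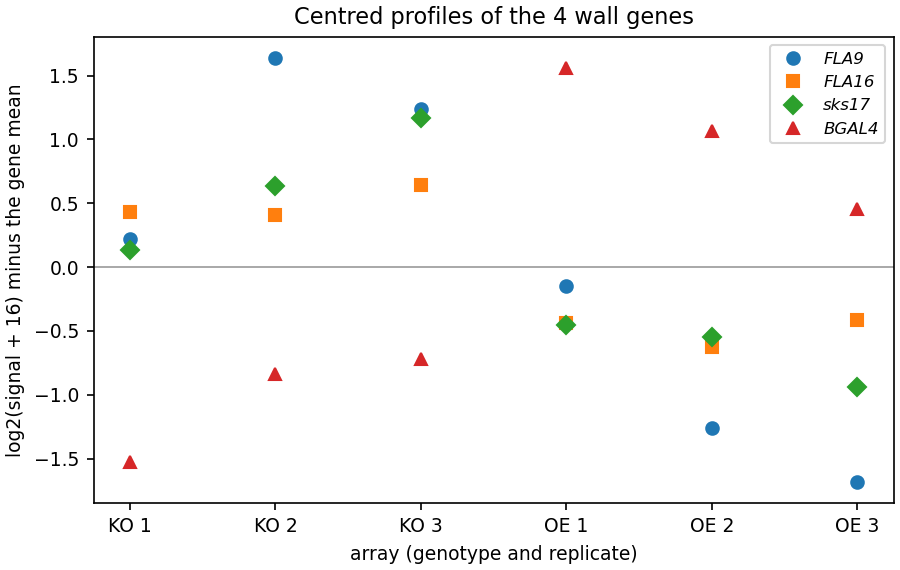
Centred log2(signal + 16) of the 4 genes (vertical axis, log2 units from each gene's mean over the 6 arrays) for each KO and OE array (horizontal axis). KO 1 and OE 1 lie close together for FLA9 (0.22 and -0.15), and BGAL4 is the gene below 0 in the KO arrays and above 0 in the OE arrays.

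Signs of RNA quality varied between arrays. In part of them the genotypes did not overlap, though none passed a test after adjustment. The 3' to 5' signal ratio of control transcripts grows as RNA shortens from the 5' end. It was read as 6 ratios, from actin, GAPDH and ubiquitin with more than 1 reading each, so the ratios are not independent. OE and KO did not overlap in 3 of the 6, the GAPDH ratios and an actin ratio, with OE higher in each. Exact permutation gave p = 0.1 for these, two-sided, which is the smallest p that 3 against 3 arrays allow (Benjamini-Hochberg adjusted p = 0.2 over the 6 ratios). The mean log2 ratio was 1.80, 1.57 and 1.53 in KO replicates 1, 2 and 3, and 1.97, 1.94 and 1.73 in OE replicates 1, 2 and 3. The genotypes overlapped in this mean (exact permutation p = 0.2, two-sided). KO replicate 1, the lowest KO array for FLA9, sks17 and BGAL4, thus had the highest ratio of its group, and OE replicate 3, the lowest OE array for them, had the lowest of its group. With the mean ratio as a covariate in the fit, the log2 difference was -1.95 (SE 0.695) for FLA9, -0.87 (SE 0.213) for FLA16, -1.05 (SE 0.413) for sks17 and 2.03 (SE 0.474) for BGAL4, each with a larger error than without it. The part of RNA quality in these differences was not tested further.

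The direction of each of the 4 differences was the same in all 12 other settings in which it was computed. For most settings this was fixed in advance. The OE and KO signals of each gene did not overlap, so leaving out an array or changing the pseudocount could not reverse a direction. The replicate block returns the same difference as the main fit. Across the 12 settings FLA9 lay between -2.50 and -1.74, FLA16 between -1.03 and -0.82, sks17 between -1.55 and -1.03, and BGAL4 between 1.79 and 2.34. Shifting the arrays to the same median moved the median difference of all tested probe sets from -0.08 to 0.09. The same shift moved FLA9 to -1.89, FLA16 to -0.82, sks17 to -1.12 and BGAL4 to 2.22, so the sizes depend in part on the scaling and the directions did not change under it.

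**Figure D3:**
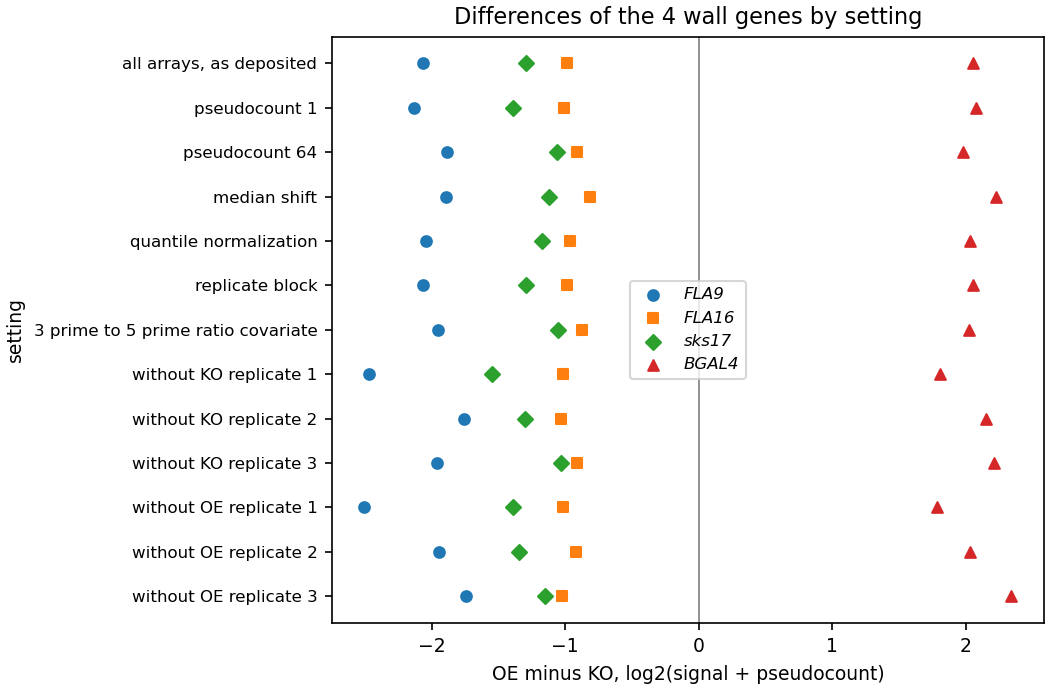
OE minus KO log2 difference (horizontal axis) of the 4 genes under each setting (vertical axis), with a grey line at 0. FLA9, FLA16 and sks17 stay below 0 and BGAL4 stays above 0 in each setting, while FLA9 moves most when single arrays are left out, from -2.50 to -1.74. Since OE and KO signals did not overlap, leaving out an array or changing the pseudocount could not change a sign.

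Among the named genes with profiles most like that of FLA9, EXL3 and XTH6 are in the wall lists described below. Among 540 other named genes, EXL3, an EXORDIUM-like gene, was nearest with a root mean square difference of 0.30, followed by AT4G34760, listed in RefSeq as a small auxin upregulated RNA gene, at 0.34 and the xyloglucan endotransglucosylase gene XTH6 at 0.35. The EXL3 signal was 1195, 2234 and 2779 in KO and 1076, 512 and 408 in OE, so its KO replicate 1 and OE replicate 1 lay close together as they did for FLA9. The XTH6 signal was 2547, 3102 and 2958 in KO and 1402, 651 and 517 in OE. In limma EXL3 did not pass (adjusted p = 0.0508), while XTH6 did (adjusted p = 0.0228).

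For sks17 the nearest genes were PG1, listed in RefSeq as polygalacturonase 1, at 0.14, AT3G02820 at 0.15 and AT1G72230, annotated in the tables as anchored to the membrane, at 0.15. The PG1 signal was 155, 253 and 366 in KO and 122, 124 and 89.7 in OE, the same order of KO arrays as for sks17. AT1G72230 had 230, 307 and 537 in KO and 113, 137 and 101.2 in OE, again with the highest signal in KO replicate 3.

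FLA16 was nearest to genes outside the wall lists: SNRK2.5, a protein kinase gene of the SnRK2 family, at 0.09, AT3G49740 at 0.10 and AT2G45870 at 0.12. The SNRK2.5 signal was 147, 138 and 155 in KO and 78.8, 61.1 and 63.8 in OE. The other nearest genes were dim: AT3G49740 had 77.8, 67.5 and 88.6 in KO and 42.9, 27.3 and 35.7 in OE. AT2G45870 had 72.8, 94.1 and 88.1 in KO and 34.4, 30.2 and 40.2 in OE. At such levels the added 16 shrinks log2 differences. Of 14 other settings with a test, SNRK2.5 was called in 4, AT3G49740 in 0 and AT2G45870 in 0. BGAL4 was nearest to AT1G72060 at 0.20, AT3G23550 at 0.21 and the branched-chain amino acid transaminase gene BCAT-2 at 0.22. The BCAT-2 signal was 135, 167 and 233 in KO and 895, 587 and 414 in OE, with the highest OE signal in replicate 1 and the lowest in replicate 3, as for BGAL4. These likenesses are over 6 arrays and within a set of genes that the authors selected for a difference between the same genotypes.

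BGAL5 (AT1G45130) was the other beta-galactosidase gene with a named probe set. Its transcript was lower in OE than in KO, while that of BGAL4 was higher. The BGAL5 signal was 398, 607 and 665 in KO and 287, 270 and 231 in OE. The log2 difference was -1.01 (SE 0.21), with an adjusted p of 0.0357 in limma. KO replicate 1 was the lowest KO array for BGAL5 as for BGAL4. The call held in 7 of 15 other settings and was lost, among others, without KO replicate 2 or 3, without OE replicate 2 or 3, and with the ratio covariate, under which the adjusted p was 0.38. Of the 17 BGAL loci in RefSeq these are the 2 with a name here. Of 20 FLA loci FLA9 and FLA16 are named, and of 19 SKU5-similar loci sks17 is.

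Other wall genes were taken from 10 lists by symbol, title and Gene Ontology identifier. Besides the 4 genes, 44 listed genes had a named probe set; 9 were called higher in OE, 18 lower and 17 did not pass. The authors selected all of these genes on the same samples, 12 as up and 32 as down, so neither their shares nor their median can be read against all probe sets. Their median log2 difference was -1.05, beside -0.08 over all tested probe sets and 1.07 over the 540 tested genes that the deposited tables name. Among those 540 genes the shares called were 49.6% higher and 21.9% lower. With any of KO replicate 2, OE replicate 2 and OE replicate 3 left out in turn, 2 listed genes were called higher and 1 lower. The numbers were 6 and 4 without KO replicate 3, and 10 and 28 without KO replicate 1. With the 3' to 5' ratio as a covariate 5 were called higher and 1 lower.

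Among structural and synthetic wall genes, AGP26 encodes an arabinogalactan protein without fasciclin domains. It was lower in OE by 1.20 on the log2 scale (SE 0.28, adjusted p = 0.0492 in limma). Its signal was 883, 1250 and 938 in KO and 700, 326 and 351 in OE. CSLA03, a gene of the mannan synthase family, was lower in OE by 1.29 (SE 0.28, adjusted p = 0.0427 in limma). COBL8, which encodes a COBRA-like protein, was higher in OE by 1.57 (SE 0.27, adjusted p = 0.0228 in limma). The calls held in 5 of 15 other settings for AGP26, in 7 for CSLA03 and in 11 for COBL8, and none of these held without KO replicate 2 or without OE replicate 3. IRX9, a gene of xylan synthesis, had a difference of -0.76 (SE 0.27) and did not pass (adjusted p = 0.123 in limma).

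In the lists of other glycosyl hydrolases and of pectin enzymes, none of the 4 named genes passed in limma. The beta-glucosidase genes BGLU47 and BGLU11 had differences of -1.13 and 1.02, the glycosyl hydrolase gene GH9B5 one of -0.88 and PG1 one of -1.03, with adjusted p-values between 0.06 and 0.0731 in limma. No listed lipid transfer protein, GASA or germin-like gene had a named probe set. The 6 xyloglucan endotransglucosylase and expansin genes, which loosen the wall of growing cells, were all called lower, with XTH6 at -1.85, XTH7 at -1.64 and XTH8 at -1.56. Leaving out replicate 2 of either genotype, or replicate 3 of OE, left 1 of the 6 calls, and leaving out replicate 3 of KO left 3. With the 3' to 5' ratio as a covariate 1 of the 6 was called. The equal-variance comparison called 0 of them, as it did of all probe sets after adjustment, and the authors had selected all 6 as down, as they had 226 of their 567 listed probe sets.

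The Gene Ontology list of wall, apoplast and membrane-anchored products held 40 genes besides the 4, of which 9 were called higher and 17 lower. The authors had already listed 11 of these 40 as up and 29 as down, so the counts are not a result about wall genes. The shares called higher and lower were 3.03% and 1.84% over all tested probe sets. Among the 540 tested genes named in the deposited tables they were 49.6% and 21.9%. Its largest called differences with OE higher were those of AT3G04640 (2.43, SE 0.45), AT1G24140 (1.91, SE 0.19) and BCB, a blue-copper-binding protein gene (1.83, SE 0.38). Their adjusted p-values were 0.0289, 0.00426 and 0.037 in limma. The largest called differences of this list with OE lower were those of XTH6, AT1G04040 (-1.82, SE 0.33) and XTH7. The list also holds products known for work elsewhere in the cell, such as the nucleolar protein NOP56, whose transcript was lower in OE by 1.20. Of the 3 higher and 3 lower genes named before NOP56, AT1G24140 and XTH7 were called in 14 of 15 other settings each. AT3G04640 and BCB were called in 10 of these settings, XTH6 in 9 and AT1G04040 in 7.

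**Figure D4:**
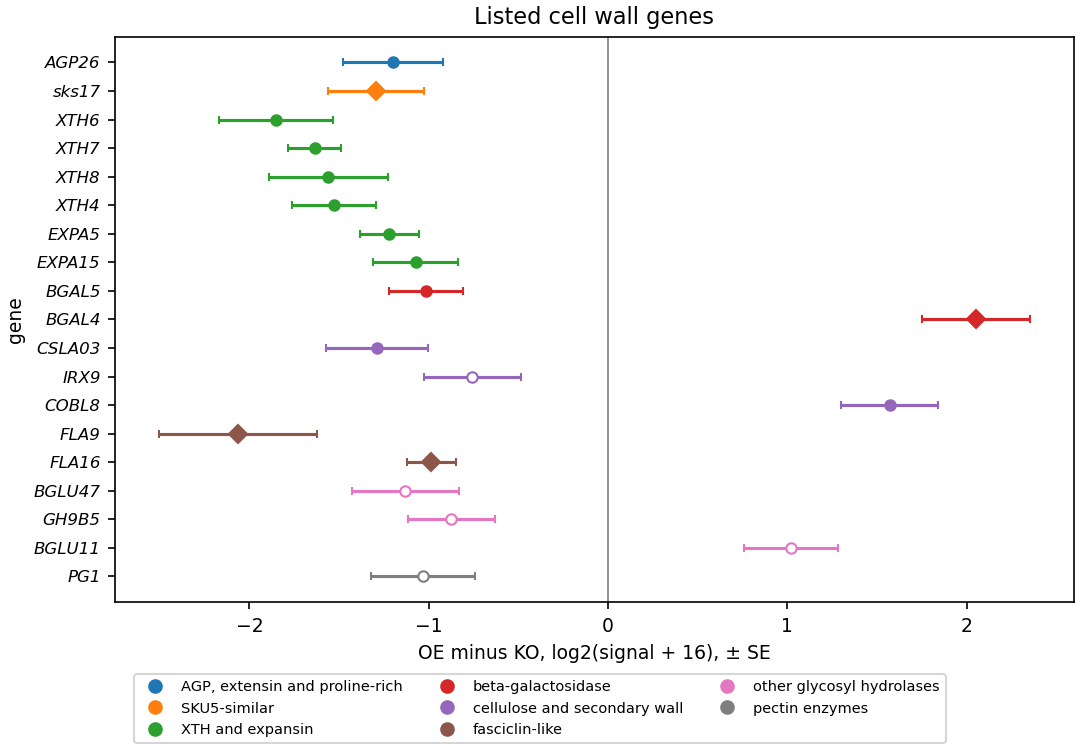
OE minus KO difference in log2(signal + 16) with its SE (horizontal axis) for the genes of the symbol and title lists (vertical axis, colour by list). Diamonds are the 4 genes described above, which were not tested, filled circles passed an adjusted p of 0.05 in limma and open circles did not; BGAL4 (2.05) and BGAL5 (-1.01) lie on opposite sides of 0.

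The neighbours of the 4 genes on the chromosome were mostly absent from the authors' tables. Of the 2 protein-coding genes on each side of each of them in RefSeq, 1 of 16 was listed: GRXS13, next but one to FLA9, which the authors' deposited table lists as up while FLA9 is listed as down. FLA16, sks17 and BGAL4 had no listed neighbour within this distance. The authors listed 567 of the 22810 probe sets, so most genes are absent and the count is not a result about these positions. A gene without a named probe set also counts as absent, so absence does not mean an unchanged signal.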

How the data were processed

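The deposited value table holds the authors' signal intensity per probe set on a linear scale, produced with MAS5 per the submitters' processing notes (no version given). From the values, each array's mean was near 500 after trimming 2% at each end. The authors' deposited up and down tables give a p-value and an absolute fold ratio per listed probe set, with annotation, and the sources used here do not name their test. Their 48 per-array columns match no sample label and were not used.

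Groups came from the sample titles. Genes were named through the deposited gene identifiers and RefSeq (TAIR10.1, names only): 541 of 567 listed probe sets had 1 matched gene, 21 had several and 5 had none matched. The OE to KO difference was fitted with limma 3.58.1 in R 4.3.3 (trend of variance) on log2(signal + 16), leaving out 64 control probe sets and those at or below the 30th percentile of mean level. All 4 members passed this filter. P-values were two-sided and Benjamini-Hochberg adjusted over all probe sets tested, with a threshold of 0.05. Differences on this scale understate changes of dim probe sets. The steps were tested on simulated data. Control ratios were compared with SciPy 1.17.1. The series design calls the replicates independent, and 3 arrays per group limit the precision.

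Named genes were the 4 members, ANAC069, all named genes of their families, up to 3 called genes with the largest differences in each other list, and the 3 nearest profiles per member. Hydrolases, PG1, IRX9, NOP56 and GRXS13 were named after their values were seen. Members and lists were chosen with earlier results of these data known; a RefSeq symbol or synonym also counted as a symbol or title. Alternatives were other pseudocounts, filters and scalings, a replicate block, a ratio covariate, an unmoderated comparison and leaving out each array. Sequences were not used here.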

Additional observations from a re-analysis of the deposited data

How the results depend on the processing

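FLA9, sks17 and BGAL4 moved by less than 1 within-group SD in each of 12 settings, and FLA16 in 11; with arrays shifted to the same median FLA16 was at -0.82. Leaving out single arrays gave -2.50 to -1.74 for FLA9, -1.03 to -0.91 for FLA16, -1.55 to -1.03 for sks17 and 1.79 to 2.34 for BGAL4. Counts of calls moved far more. Of all probe sets, 483 were higher and 293 lower; the numbers were 261 and 76 with no filter, 794 and 143 after the median shift, 189 and 19 with the ratio covariate, and 66 to 548 and 7 to 852 without single arrays. The higher share of calls was 62.2% as deposited and 84.7% after the shift. The unmoderated equal-variance comparison on log2(signal) called 0 and 0 after adjustment, with 3280 probe sets at an unadjusted p under 0.05, against 4273 in limma. Of the 44 listed wall genes, 9 higher and 18 lower became 4 and 6 with no filter, 5 and 1 with the ratio covariate, 0 and 0 with the equal-variance comparison, and 2 to 10 and 1 to 28 without single arrays. With the replicate block 238 probe sets were called higher and 37 lower, and 7 and 5 listed wall genes. Deviations of same-numbered arrays from their group means correlated at -0.24, -0.12 and 0.06, and not every array correlated best with its own number. With few arrays, whose deviations sum to 0 in each group, these values cannot show whether the replicate numbers pair the samples. The 53 genes refitted besides the members (ANAC069, the 44 listed wall genes and the nearest profiles) kept their direction in every setting in which they were tested. The authors had selected them on the same contrast, and their OE and KO signals did not overlap. Leaving out an array or changing the pseudocount could therefore not reverse a direction. ANAC069 was called in 14 of 15 settings, the exception being the equal-variance comparison. The cause of these shifts was not tested.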

Other observations

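Some of the secreted or membrane-bound proteins listed above are those of plasmodesmata, the channels that join plant cells through the wall. This group was chosen after its values were seen and is a description, with no test of the group. It holds 5 genes by title or RefSeq synonym, all from the authors' deposited down table, which holds 226 of the 567 probe sets the authors listed. All 5 are in the Gene Ontology list and were counted there, PDCB3 as not passed and the others as called lower. They add no genes to those counts. The share called lower was 21.9% among the 540 tested genes named in the deposited tables and 1.84% over all tested probe sets. PDCB1, which encodes a callose-binding protein of plasmodesmata, had signals of 612, 1011 and 962 in KO and 534, 223 and 270 in OE, a log2 difference of -1.36 (SE 0.32). Its KO replicate 1 and OE replicate 1 lay close together, as they did for FLA9. PDCB5 had 237, 186 and 196 in KO and 106, 94.9 and 106 in OE, with a difference of -0.91 (SE 0.18) and tight replicates, as for FLA16. PDCB3 was at -0.98 (SE 0.26), and the plasmodesmata-located protein genes PDLP2 and PDLP3 were at -1.34 (SE 0.29) and -1.20 (SE 0.26). The calls depended on the setting. Of 15 other settings PDCB1 was called in 6 and PDLP3 in 7, and of 14 other settings PDLP2 was called in 6 and PDCB5 in 4. Each of these calls was lost when replicate 2 or 3 of either genotype was dropped. Each was also lost with the 3' to 5' ratio as a covariate.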
